A study of Homo sapiens with 2 samples.

Results

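A set of 10 genes of the epithelial-mesenchymal transition (EMT) was examined in RKO, an established line of human colon cancer cells: the adhesion molecules CDH1, CDH2 and EPCAM, the epithelial splicing factors ESRP1 and ESRP2, and the transcription factors ZEB1, ZEB2, SNAI1, SNAI2 and TWIST1. Members were taken by gene symbol, and every probe set with one of these symbols as its only platform gene symbol was used. This gave 19 probe sets for 9 of the 10 genes, out of 19775 genes on the array. ESRP2 had no probe set with its symbol alone and was not analysed here. The study held 2 arrays, 1 per group. The control array (sh-Luci) held RNA from cells infected with a retrovirus carrying a hairpin against luciferase, and the knockdown array (sh-BCLAF1-L) RNA from cells carrying hairpin #1 against BCLAF1-L, the long isoform of BCLAF1, a nuclear protein. Both cultures were selected with puromycin at 2 µg/ml for 72 to 96 h, starting after a change of medium 24 h after infection, and are called stable lines in the labels. With 1 array per group, all values are single measurements, no p-value or replicate error could be computed, and the number of arrays limits the precision.

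EMT is the switch by which epithelial cells give up cell-cell adhesion for a motile, mesenchymal state. ZEB1, ZEB2, SNAI1 and SNAI2 are zinc finger repressors that bind the E-box CACCTG in the promoters of epithelial genes such as CDH1, and TWIST1 is a basic helix-loop-helix factor that binds E-boxes of related sequence. CDH1 (E-cadherin) holds epithelial cells together at adherens junctions, and CDH2 (N-cadherin) replaces it in many mesenchymal cells. EPCAM is an epithelial surface protein of the colon, and ESRP1 and ESRP2 direct the splicing of epithelial isoforms of FGFR2, CD44 and other transcripts. The comparison addresses whether RNA of these genes differed between cells with the 2 hairpins, and which of them could be measured in RKO cells.

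The promoters of ZEB1, ZEB2 and CDH2 are shown because these were the members with an entry in the RefSeq promoter table (GRCh38.p14), and because ZEB1 was detected on each of its probe sets while ZEB2 and CDH2 were each detected on 1. Each sequence is the 250 bases before the gene's outermost annotated start, 5′ to 3′ on the gene's strand, with CACCTG or its reverse complement CAGGTG in capitals.
ZEB1 (chr10:31318167-31318416, plus strand): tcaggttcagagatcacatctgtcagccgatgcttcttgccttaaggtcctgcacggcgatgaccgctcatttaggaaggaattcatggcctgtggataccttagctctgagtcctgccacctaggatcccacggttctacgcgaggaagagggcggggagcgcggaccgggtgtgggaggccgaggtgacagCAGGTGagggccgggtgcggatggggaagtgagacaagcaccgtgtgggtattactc
ZEB2 (chr2:144520120-144520369, minus strand): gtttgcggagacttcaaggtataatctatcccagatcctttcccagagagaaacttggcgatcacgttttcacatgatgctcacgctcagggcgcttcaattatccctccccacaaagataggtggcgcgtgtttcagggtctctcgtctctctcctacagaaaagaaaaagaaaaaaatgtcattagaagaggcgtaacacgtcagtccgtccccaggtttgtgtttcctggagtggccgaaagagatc
CDH2 (chr18:28177131-28177380, minus strand): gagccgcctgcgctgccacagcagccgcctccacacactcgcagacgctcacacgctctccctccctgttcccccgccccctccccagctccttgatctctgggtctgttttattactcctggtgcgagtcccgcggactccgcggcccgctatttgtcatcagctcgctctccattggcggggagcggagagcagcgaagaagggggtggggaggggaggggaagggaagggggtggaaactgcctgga
The ZEB1 stretch held the motif at 1 position, whose first base lay at -57 from the start, and the ZEB2 and CDH2 stretches held it nowhere. Of 34788 distinct stretches of this length in the table, 17.5% held the motif on either strand. A match is a match of letters and not a bound site. The GC content was 59.2% for ZEB1, 48% for ZEB2 and 66% for CDH2, against a median of 58% over all stretches.

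An intensity is the authors' deposited linear value of 1 probe set on 1 array, and a difference is log2(intensity + 1) on the knockdown array minus that on the control array. Probe sets bind with unequal efficiency, so differences were taken between arrays and not between genes. The detection call below and the percentiles set all probe sets against a common scale. Unequal binding thus limits contrasts of detected and undetected genes. A probe set was called detected when its mean on the log2 scale lay at or above the 40th percentile over all probe sets, an intensity of 63.7, and a gene took the value of its brightest probe set. Passing this level is not proof of expression: of 20 markers of fibroblasts, endothelium and blood cells, none of which defines a colon cancer cell, 10 passed it. Among the detected were CD79A, a B cell receptor component, at 613 with sh-Luci and 516 with sh-BCLAF1-L, and VWF, an endothelial glycoprotein, at 177 and 194. PTPRC, the pan-leukocyte antigen CD45, read 41.2 and 43.3 and was not detected. Over these 20 markers the differences of the 10 detected ones ran from -0.34 to 0.20.

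Over the whole arrays, median intensities were 82.7 (control) and 84.5 (knockdown), and 14507 genes were detected. BCLAF1, the targeted gene, was lower on 6 of 6 probe sets, by 2.65-fold on the brightest (2505 and 945). The sources used here do not say which isoform each probe set reads. Only 1 hairpin against BCLAF1 was measured, so effects of lower BCLAF1 and off-target effects cannot be told apart. Bacterial spike-in controls labelled with biotin read higher in the knockdown on 18 of 18 probe sets (median difference 0.20), and the median over all probe sets was 0.026. The part of this difference between arrays in the values below was not tested, and arrays and hairpins cannot be told apart.

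Detected EMT genes differed by less than 1.5-fold between the hairpins. Of the 9 members, 5 were detected (ZEB1, ZEB2, SNAI1, CDH2 and EPCAM), or 55.6% against 73.4% of all genes. The other 4 were not detected (CDH1, ESRP1, SNAI2 and TWIST1). None of the 5 detected members reached 1.5-fold, where 0.634% of all detected genes did, and none of their 8 detected probe sets, where 0.71% of all detected probe sets did. Of their brightest probe sets, 3 were higher and 2 lower on the knockdown array, with differences from -0.33 to 0.28 and a median of 0.096, against a median of 0.019 and an SD of 0.17 over all detected genes. The central 95% of detected genes lay between -0.31 and 0.37, and CDH2, at -0.33, fell just below it. In RNA from whole cultures, fewer cells expressing a gene and less RNA per cell cannot be told apart.

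**Figure D1:**
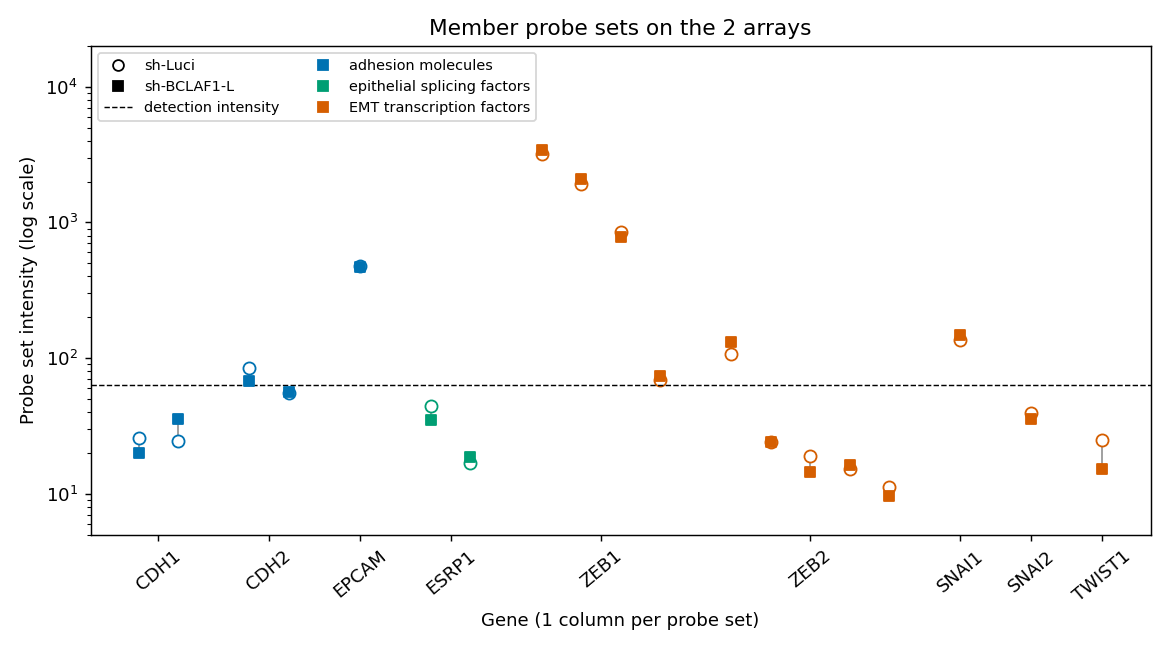
Intensity (log axis) of each of the 19 member probe sets, 1 column per probe set grouped by gene, on the control array (open circles) and the knockdown array (filled squares), coloured by role. The dashed line is the detection intensity of 63.7. ZEB1 lies above the line on its 4 probe sets, whereas CDH1, ESRP1, SNAI2 and TWIST1 lie below it on every probe set.

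ZEB1, a repressor of CDH1 in many carcinoma cells, was detected on 4 of 4 probe sets. Its brightest probe set read 3172 with sh-Luci and 3390 with sh-BCLAF1-L, at the 98.7th and 98.8th percentiles of all probe sets. The knockdown value was 1.07-fold higher, a difference of 0.096. The second probe set read 1914 and 2089, a difference of 0.13. The third read 847 and 786, a difference of -0.11. The dimmest read 68.7 and 73.2, near the detection intensity, a difference of 0.090. The 4 probe sets thus gave both signs, and their SD of 0.11 on the log2 scale was about as large as the differences themselves, so no direction can be given for ZEB1. After subtraction of the median difference of all probe sets, the brightest probe set differed by 0.070.

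ZEB2, the paralogue of ZEB1, was read by 5 probe sets, of which 1 was detected. That probe set read 108 with sh-Luci and 131 with sh-BCLAF1-L, 1.22-fold higher, and its difference of 0.28 was the highest among detected members. The other 4 read between 9.67 and 24.2 over both arrays. Their differences were 0.014, -0.37, 0.099 and -0.20, so 2 were higher and 2 lower. With the median over its probe sets the difference of ZEB2 was 0.014. The sources used here do not say which ZEB2 transcripts the single brighter probe set reads.

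SNAI1 (Snail), which represses CDH1 directly, read 137 with sh-Luci and 147 with sh-BCLAF1-L on its only probe set, 1.08-fold higher with a difference of 0.11. SNAI2 (Slug), its paralogue, read 39.0 and 35.4, below detection, a difference of -0.14. TWIST1 read 24.99 and 15.18 on its only probe set, at the 13.0th and 5.80th percentiles of the arrays. Its difference of -0.68, 1.61-fold lower, was the largest in size of all 19 member probe sets and the only one past 1.5-fold. Of the 21870 undetected probe sets, 5.26% were at least 1.5-fold apart in either direction, and 1 of the 11 undetected member probe sets was. The central 95% of differences among probe sets in the same brightness class as TWIST1 (10 classes of equal size) ran from -0.78 to 0.92, so its value lay inside the spread seen at that brightness. With a pseudocount of 32 the difference of TWIST1 was -0.27.

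CDH1, the hallmark of the epithelial state, was dim on both arrays. One probe set read 24.6 with sh-Luci and 35.6 with sh-BCLAF1-L, a difference of 0.52. The other read 25.6 and 19.95, a difference of -0.34. These values of the same gene lay 0.86 apart on the log2 scale with opposite signs, and no direction can be given for CDH1. Probe sets of 1 gene below detection differed from each other with a pooled SD of 0.30, against 0.16 for detected ones. The SD over probe sets was 0.61 for CDH1, 0.32 for ESRP1 and 0.26 for ZEB2.

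CDH2 read 84.9 with sh-Luci and 67.5 with sh-BCLAF1-L on its brighter probe set, a difference of -0.33, the lowest among detected members. Its other probe set read 54.9 and 55.95, below detection, a difference of 0.027. The lower value thus appeared on 1 of the 2 CDH2 probe sets, and with their median the difference was -0.15.

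EPCAM had the smallest difference in size of the 9 members' brightest probe sets. Its only probe set read 477 with sh-Luci and 472 with sh-BCLAF1-L, at percentiles 86.4 and 86.1 of the arrays, a difference of -0.016. The 2 intensities were 1.01-fold apart. Of the 2 epithelial adhesion molecules, EPCAM was thus detected and CDH1 was not.

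ESRP1 was below detection on each of its 2 probe sets. One read 44.2 with sh-Luci and 35.1 with sh-BCLAF1-L, a difference of -0.33, and the other 16.9 and 18.6, a difference of 0.13. As for CDH1 and CDH2, the 2 probe sets had opposite signs. Each of the 5 members with several probe sets held both signs. How many of all genes with several probe sets do so was not computed. The positive sign of CDH2 rested on a difference of 0.027, where the median over all probe sets was 0.026. Over the 19 probe sets, 1 was past 1.5-fold, where 2.53% of all probe sets were, and 10 were higher and 9 lower on the knockdown array, with a median of 0.014. Each of the 19 lay inside the central 95% of differences of its own brightness class.

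**Figure D2:**
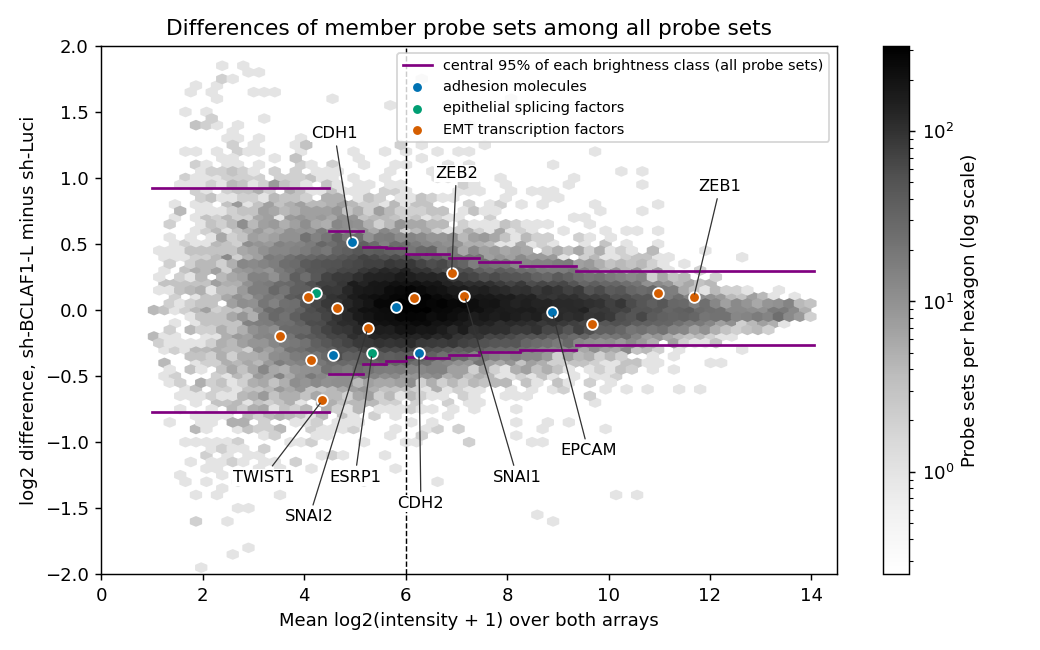
Difference of each probe set (log2, knockdown minus control) against its mean log2(intensity + 1), with all probe sets as grey hexagons (differences beyond 2 in size are not drawn) and members as coloured points, of which the brightest of each gene is named. Purple lines bound the central 95% of each brightness class and the dashed line is the detection intensity. The spread widens to the left, and all 19 member points lie between the purple lines.

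Other genes of epithelial junctions and identity were mostly detected, although CDH1 was not. Of 39 epithelial junction and identity genes with a probe set, 36 were detected (92.3%, against 73.4% of all genes). The 3 undetected ones were CLDN1 (52.0 and 52.3), RAB25 (28.1 and 28.4) and KRT19 (46.4 and 61.1). Of the 36 detected genes, 16 were higher and 20 lower, none past 1.5-fold in either direction, with a median of -0.042. The share of all detected genes past 1.5-fold was 0.434% for higher and 0.2% for lower values. KRT18, a keratin of simple epithelia, had the lowest difference, -0.54 (979 and 674), whereas KRT8, with which it pairs in filaments, read 96.0 and 97.6. The only probe set of each keratin has a name that marks it as open to matches with other transcripts. CXADR, a tight junction receptor, read 153 and 113, and PKP2, a desmosomal plakophilin, 181 and 138. At the other end ST14, the protease matriptase, read 117 and 143. GRHL2, a transcription factor that maintains the epithelial state and opposes ZEB1, read 75.0 and 69.0, close to the detection intensity.

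Catenins, which tie cadherins to actin, and nectins, which adhere beside them, differed little. All 9 catenins, nectins and related genes with a probe set were detected, where 73.4% of all genes were. Their differences ran from -0.088 to 0.16, with a median of 0.013. CTNNB1 (beta-catenin) read 4304 and 4169, a difference of -0.046, and its other 2 probe sets differed by -0.17 and -0.11. CTNNA1 (alpha-catenin) read 2145 and 2035, while its other probe sets differed by -0.024 to 0.23.

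Of 19 other cadherins with a probe set, 9 were detected (47.4%, against 73.4% of all genes), 6 higher and 3 lower, with a median of 0.19. Where 0.434% of all detected genes were at least 1.5-fold higher, 1 of these 9 cadherins was. That was CDH6, a type II cadherin, at 60.7 and 97.5, a difference of 0.67. Its control value lay below the detection intensity of 63.7, so CDH6 passed the filter through the array where it was high. Its other detected probe set differed by 0.11. The difference of CDH6 was 0.13 with the median over its 6 probe sets and 0.48 with a pseudocount of 32, each under 1.5-fold. CDH7 was lower, at 87.7 and 59.9. CDH11, a mesenchymal cadherin, read 94.8 and 81.5, a difference of -0.22, or 0.075 with the median over its 4 probe sets. CDH3 (P-cadherin) read 41.8 and 43.5 and was not detected.

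Mesenchymal genes ran from -0.98 to 0.59 with no common direction. Of 31 with a probe set, 25 were detected (80.6%, against 73.4% of all genes), 14 higher and 11 lower, with a median of 0.020. Of these 25, 1 was at least 1.5-fold higher and 2 at least 1.5-fold lower. The shares of all detected genes were 0.434% and 0.2%. VIM (vimentin), the intermediate filament of mesenchymal cells, read 378 and 453, a difference of 0.26, or 0.031 with the median over its 2 probe sets. FN1 (fibronectin) read 112 and 123, a difference of 0.14, or -0.092 with the median over its 7 probe sets. MSN (moesin), which links membrane and actin, had the lowest difference, -0.98 (556 and 281), on the 1 detected of its 2 probe sets, and -0.48, under 1.5-fold, with their median. TAGLN, an actin-binding protein, differed by -0.69 (238 and 147), although its other probe sets differed by -0.87 and 0.15. CCN2, a matricellular protein, read 145 and 96.8. NT5E (CD73), a surface nucleotidase, was higher at 196 and 296, a difference of 0.59, with 0.33 to 1.40 on its other detected probe sets. The difference of NT5E was 0.46 with the median over its probe sets and 0.52 with a pseudocount of 32. After median or loess subtraction it was 0.56 or 0.575. Each of these values was under 1.5-fold.

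Of 29 other EMT regulators and co-repressors with a probe set, 22 were detected (75.9%, against 73.4% of all genes). Of these, 13 were higher and 9 lower, with a median of 0.027. None was past 1.5-fold, where 0.634% of all detected genes were. TGFB1, a ligand that induces EMT, read 220 and 177, a difference of -0.31. Its receptors differed the other way: TGFBR1 read 1142 and 1359, a difference of 0.25 with 0.20 to 0.27 on its other probe sets, and TGFBR2 read 262 and 290, a difference of 0.14. ID1 and ID2, inhibitors of basic helix-loop-helix factors, differed by -0.26 and -0.31, each on 1 detected probe set.

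All 12 splicing regulators that act beside or against the ESRP proteins were detected, where 73.4% of all genes were. Of these 12 genes, 8 were higher and 4 lower, with a median of 0.039. None was past 1.5-fold, where 0.634% of all detected genes were. QKI, which promotes mesenchymal splicing, read 58.6 and 77.4 on the 1 detected of its 10 probe sets. The control value of QKI lay below the detection intensity. HNRNPM, which competes with ESRP1 at CD44 exons, read 2852 and 2754. RBM47, an epithelial RNA-binding protein, read 70.8 and 77.45 on the 1 detected of its 5 probe sets. Of 8 genes with exons known to be regulated by ESRP proteins, 3 were higher and 5 lower with a median of -0.034. ENAH, an actin regulator, had the lowest value, -0.58 (620 and 416), and its other detected probe sets differed by -0.42 to -0.26. CD44 read 2097 and 2312 and FGFR2 179 and 208. The sources used here do not say which isoforms these probe sets read, so no splicing change was measured.

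Of 10 colon epithelial markers with a probe set, 7 were detected (70%, against 73.4% of all genes), with a median of 0.10. LGALS4, a galectin of the intestinal epithelium, read 186 and 143, a difference of -0.37. GPA33, a colonic surface antigen, read 119 and 147, a difference of 0.30, and CDX2, the intestinal homeobox factor, 67.4 and 77.3. The 3 undetected markers were KRT20 at 15.6 and 14.6, CDH17, the intestinal cadherin, at 46.7 and 47.2, and CEACAM5 at 61.9 and 57.8. Epithelial and mesenchymal genes both passed this detection level in RKO cells, but 10 of 20 markers of other cell types also passed it. Passing it is thus not proof that a transcript was present. EPCAM and 36 of 39 epithelial junction and identity genes (92.3%) were detected. So were ZEB1 on 4 of 4 probe sets, ZEB2 on 1 of 5, CDH2 on 1 of 2 and SNAI1 on its only one. Of 31 mesenchymal genes, 25 were detected (80.6%). The share was 73.4% for all genes and 55.6% for the 9 members. CDH1, ESRP1, SNAI2 and TWIST1 were not detected.

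**Figure D3:**
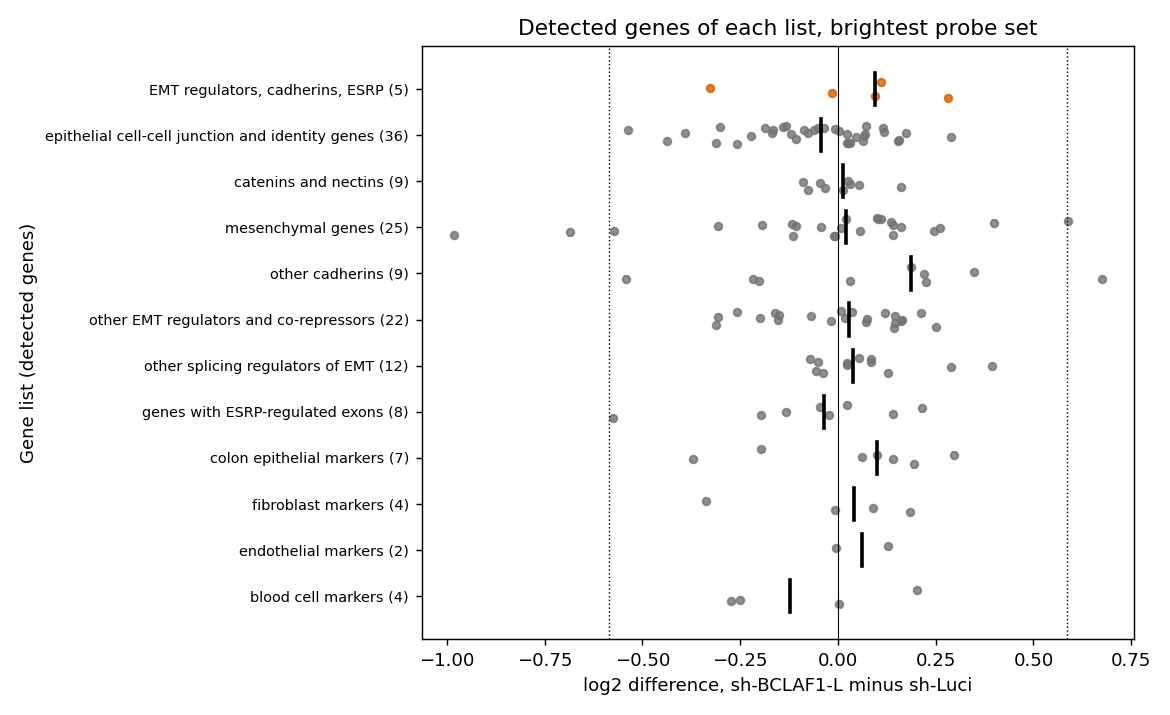
Difference (log2, knockdown minus control) of each detected gene on its brightest probe set, 1 row per gene list with the number of detected genes in brackets, the analysed EMT genes in orange. Black bars are medians and dotted lines mark 1.5-fold. The 5 detected EMT genes lie between -0.33 and 0.28, and the mesenchymal list and the other cadherins hold the only genes past a dotted line.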

How the data were processed

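RNA of RKO cells was measured on 2 Affymetrix arrays, 1 per hairpin, from 200 ng of total RNA per the labels' protocols. The values the authors deposited are linear probe set intensities; the submitters' processing notes name RMA (background correction, quantile normalization and probe summary). The sources used here do not give the software version, the final scaling or the reason for a lowest intensity of 1. Of 54675 probe sets, 41097 had 1 gene symbol in the platform annotation, 1801 several and 11777 none. Symbols were updated by Entrez identifier through a RefSeq table of GRCh38.p14, which held 41043 of them.

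Differences were computed as log2(intensity + 1), knockdown minus control, with Python 3.11.15 and pandas 2.3.3. Detection was set at the 40th percentile and calls at 1.5-fold. Without replicates no test was run. As a measure of spread, the pooled SD of differences among detected probe sets of 1 gene (6752 genes) was used. It does not cover cultures, infections or arrays, and may hold differences between the transcripts that the probe sets read. The members and the 11 other gene lists (185 genes, 174 with a probe set) were chosen with earlier results of these data known. From each list, up to 3 detected genes at each end of the differences could be named, plus VIM, FN1, KRT8, KRT18, GRHL2, CDH3, CTNNB1 and TGFBR2. PTPRC, KRT20, CDH17, CEACAM5, CLDN1, RAB25 and KRT19 were named after their values were seen. With 2 arrays, genes of like pattern could not be sought. The procedure was tested on simulated data with noise of a constant SD. That test required only that added differences larger than any of the members be called. It does not bear on differences of the members' size or on the wider spread below detection. Alternatives were the median over probe sets, no _s_at or _x_at probe sets, no filter, a 60th percentile filter, median or loess (span 0.3) subtraction, a pseudocount of 32 and fold thresholds of 0.32 (log2) and 2-fold.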

Additional observations from a re-analysis of the deposited data

How the results depend on the processing

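No paired analysis was possible because there was a single array for each hairpin, which also leaves no replicate to omit. A value counted as moved when it shifted by more than the SD between probe sets of a gene, 0.16, and a count when it changed by over 1.5 times. Without a filter, 9 instead of 5 members counted as detected, 1 member and 1 of 19 member probe sets (TWIST1) passed 1.5-fold instead of 0, and the blood cell marker median was 0.045 instead of -0.12. At a lower threshold of 0.32 on the log2 scale, 1 detected member and 1 member probe set (CDH2) passed. With a 60th percentile filter, the fibroblast marker median was -0.12 over 2 genes. The median of the members was 0.038 with the median over probe sets, -0.016 without a filter, and 0.070 to 0.10 under the other settings. Subtracting the median difference took the catenin list to -0.013 and the mesenchymal list to -0.0054. Detected members were 4 with the median over probe sets, without _s_at and _x_at probe sets, and with the 60th percentile filter. The other summary values kept within these limits. Among named genes, 31 values moved. Without _s_at and _x_at probe sets, TAGLN reversed to 0.15, and 7 of 61 genes changed sign, among them ESRP1 (0.13), CDH11 (0.17), CTNNA1 (0.23) and RBM47 (-0.063). With the median over probe sets 10 of 71 changed sign, among them FN1 (-0.092) and VIL1 (-0.21). EPCAM, CDH1, KRT18, KRT8, VIM, PKP2, ID1, ID2, VCL and MAP3K7 have no probe set of another kind. They gave no value without _s_at and _x_at probe sets. Across the settings that gave a value, ZEB1 lay between 0.070 and 0.097, EPCAM between -0.042 and -0.015 and CDH2 between -0.36 and -0.15. CDH1 lay between 0.087 and 0.52 on its brighter probe set or the median, while its other probe set gave -0.34. Low signal limits CDH1, ESRP1, SNAI2, TWIST1 and 4 of the 5 ZEB2 probe sets.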

Other observations

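Host transcripts of microRNAs that repress ZEB1 and ZEB2 were looked at after the values of the members were known. MIR200CHG, the host of miR-200c and miR-141, read 136 with sh-Luci and 159 with sh-BCLAF1-L, a difference of 0.22 on its only probe set, whose name marks it as open to matches with other transcripts. MIR205HG, the host of miR-205, read 29.95 and 42.6, below detection, a difference of 0.50. Mature microRNAs were not measured on these arrays.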
